A study of Caenorhabditis elegans with 40 samples.

Results

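The genes csr-1, hrde-1 and glh-1 act in germ granules and small RNA pathways of Caenorhabditis elegans, and each had a listed peak of the heat shock factor HSF-1 at a transcription start site (TSS). They are 3 of 19973 protein-coding genes and were chosen by those listed positions and classes, so their peaks are described here without a test. Their sites were 1 of the 441 common summits after heat shock and 3 of the 500 at 20 °C. A summit counted for a gene when it was no more than 1000 bp from the start of a protein-coding transcript.

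HSF-1 is the transcription factor that drives chaperone genes under heat stress, and it also acts in unstressed development and in the germline. Germ granules are RNA-rich bodies at the nuclear pores of germ cells. There, Argonaute proteins with small RNA guides decide which transcripts are silenced and which are protected. CSR-1 is an Argonaute whose guides match many germline-expressed genes and which is essential for fertility. HRDE-1 is a nuclear Argonaute that carries gene silencing across generations. GLH-1 is a Vasa-family DEAD-box helicase and a constitutive component of P granules.

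All animals were young adults whose own hsf-1 gene was tagged with a degron and GFP, on an unc-119(ed3) background with a TIR1 transgene that carries unc-119 of Caenorhabditis briggsae. TIR1, the plant protein that lets auxin degrade the tagged HSF-1, was driven by eft-3p in strain JTL611 (labelled soma) or by sun-1p in strain JTL621 (labelled germline). Each strain spent 2 h on auxin plates (HSF-1 depleted) or ethanol plates (control), and was then heat shocked at 34 °C for 30 min or collected from 20 °C. HSF-1 was precipitated through GFP in 16 of the 40 libraries, in 8 groups of 2. These groups were auxin or ethanol, after heat shock or at 20 °C, in the soma or germline TIR1 strain.

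The values were 2 lists of summits common to the ethanol controls and 6 class lists. A peak is called germline, soma or shared when the authors listed its region as lost with germline depletion, with soma depletion or with both. After heat shock the lists held 92 germline, 64 soma and 257 shared peaks, and 28 common summits were in no class. At 20 °C they held 179 germline, 47 soma and 242 shared peaks, with 32 summits in no class. No list gave values per library, so depth and the spread between replicates are unknown for every value below. The peaks come from whole animals, so a lower score cannot separate fewer bound nuclei from less binding in each.

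At csr-1, the common summit after heat shock was at chrIV:7958385-7958385 with a peak score of 129 and stood in no class. At 20 °C the summit was at chrIV:7958349-7958349, 36 bp away, with a peak score of 1603, in the shared class. The gene was thus marked at nearly the same position in both conditions but counted as lost on depletion only in the list of unstressed animals. Positions are as deposited; their genome build is not stated in the sources used. Annotations are from Ensembl release 115 on WBcel235. On chromosome IV, moving all summits by 500 bp did not lower the number near a start, so distances at csr-1 rest on an annotation fit that could not be checked there. The same held after heat shock on chromosome III and over all 441 summits, on which the shares of genes after heat shock rest. Over all 500 summits at 20 °C, 99 lay within 300 bp of a start as deposited and 93 after a move to the right. The shares of genes at 20 °C thus rest on a weak fit.

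The csr-1 site lay inside the annotated gene, in introns of its long transcripts but before the start of its short transcript. The annotation gives 3 protein-coding transcripts on the plus strand of chromosome IV. Both transcripts of the long isoform, CSR-1a, start upstream, and the summit at 20 °C lay in an intron of each, 1082 bp and 781 bp downstream of their starts. The transcript of the short isoform, CSR-1b, starts at position 7958613, and this summit lay 264 bp upstream of it. The summit after heat shock was 228 bp upstream of the same start. As background, CSR-1a is known from spermatogenic germ cells and the intestine, and CSR-1b from the germline throughout. The start at 1082 bp was the only one of these 3 genes just beyond the 1000 bp limit, and the one at 781 bp the farthest within it. The site was also in an intron of the frpr-10 transcript F57H12.4.1, 545 bp downstream of its start at 20 °C. This gene of the FMRFamide-like peptide receptor family is on the same strand, and its other annotated transcripts did not cover the site.

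At hrde-1, the list after heat shock held no common summit within the 1000 bp limit. The nearest was 25043 bp away, in the soma class. At 20 °C a shared-class summit lay at chrIII:4176380-4176380 with a peak score of 929. It was in intergenic sequence, 221 bp upstream of the hrde-1 start on the minus strand. The gene C16C10.13 starts in the opposite direction only 281 bp from the start of hrde-1, and the summit was 60 bp upstream of it. The summit thus lay between 2 divergent starts and nearer to C16C10.13. When each summit was given only to its nearest TSS, hrde-1 was no longer counted, and 2 of the 3 genes kept a summit at 20 °C.

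At glh-1, no common summit after heat shock lay nearer than 167351 bp to the TSS. At 20 °C a shared-class summit lay at chrI:6854534-6854534 with a peak score of 150.2. It was 56 bp downstream of the single annotated start, in the 5' UTR within exon 1, and no other gene had a start within 1000 bp. On chromosome I at 20 °C, 15 summits lay within 300 bp of a start as deposited. After a move of 500 bp to the right 14 did, so this placement rests on a weak annotation fit. Of the 3 genes, glh-1 had the summit closest to a start and the lowest score.

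**Figure D1:**
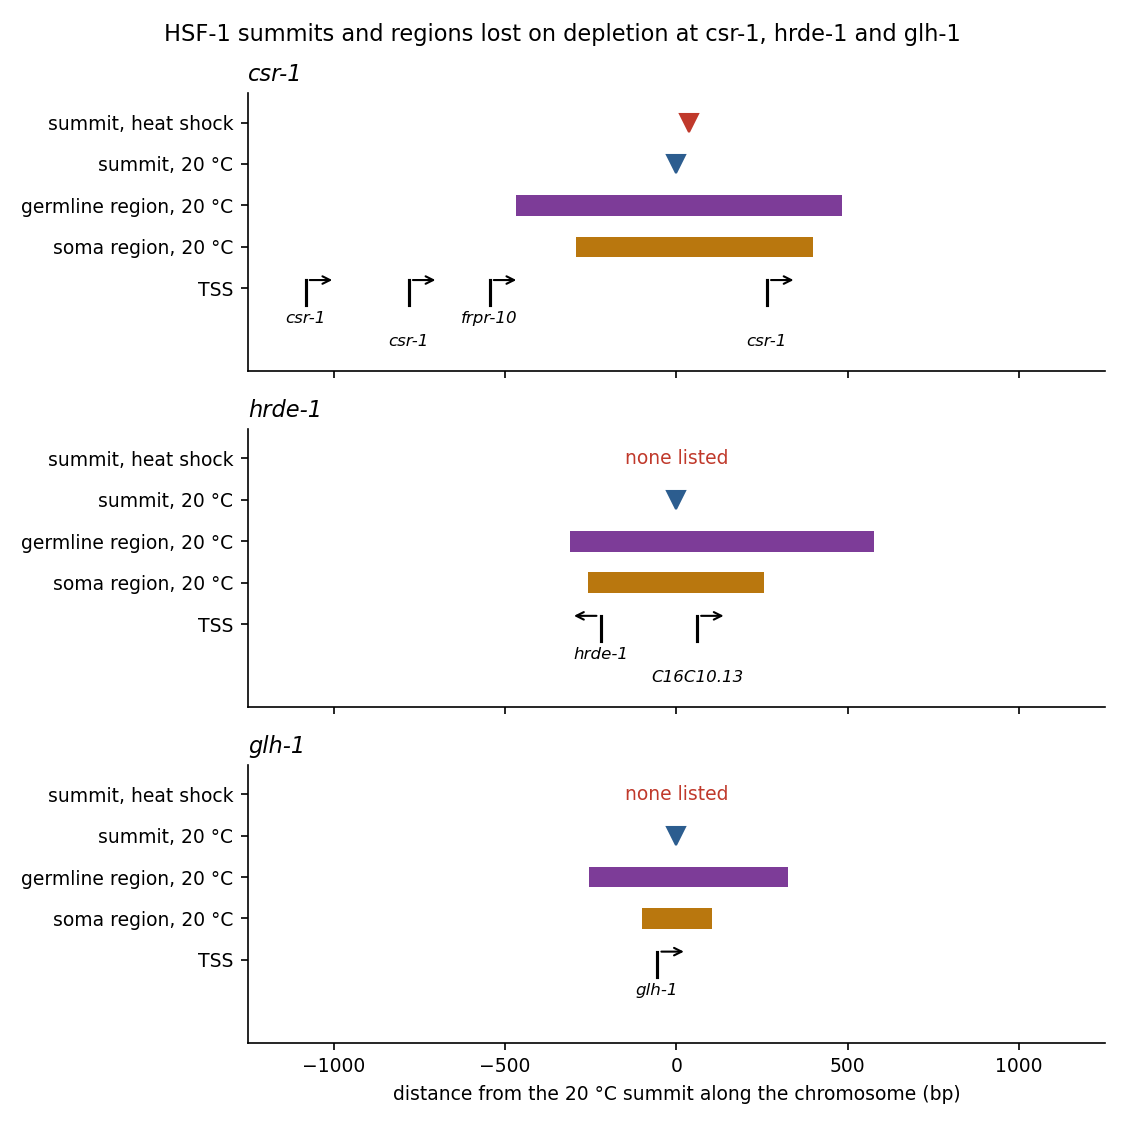
Positions of HSF-1 summits (triangles), of the regions lost on germline and soma depletion at 20 °C (bars) and of protein-coding TSSs (arrows, in the direction of transcription), in bp from the 20 °C summit. The csr-1 summit after heat shock is 36 bp from that at 20 °C, and hrde-1 and glh-1 have none listed after heat shock.

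Across all 19973 protein-coding genes, 0.806% had a common summit at a TSS after heat shock and 1.27% at 20 °C. Summits outside every class marked 0.115% of all genes after heat shock and 0.0701% at 20 °C. Shared-class summits marked 0.215% after heat shock and 0.551% at 20 °C. All 3 genes had a shared-class summit at 20 °C, and only csr-1 had a common summit after heat shock, which was unclassed. The rule used these listings, so nothing is read from them. Soma-class summits marked 0.355% of all genes after heat shock and 0.16% at 20 °C. Germline-class summits marked 0.135% after heat shock and 0.521% at 20 °C. None of the 3 genes had a germline-class or soma-class peak in either condition.

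The peak scores of the 3 genes were spread widely in their own condition. What a score is relative to is not stated, so scores are read only as ranks within a condition. After heat shock the csr-1 summit ranked 413 of 441, and 93.4% of common summits had a higher score. The median common summit then scored 2884, and the median summit in no class 130.2. At 20 °C csr-1 ranked 142, hrde-1 184 and glh-1 368 of 500, against a median score of 470.5. Both Argonaute genes thus lay in the upper part of the list at 20 °C and glh-1 in the lower part. Within the 242 shared-class peaks the same sites ranked 136, 170 and 229, and within the 190 summits at a TSS of any class 31, 42 and 115.

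**Figure D2:**
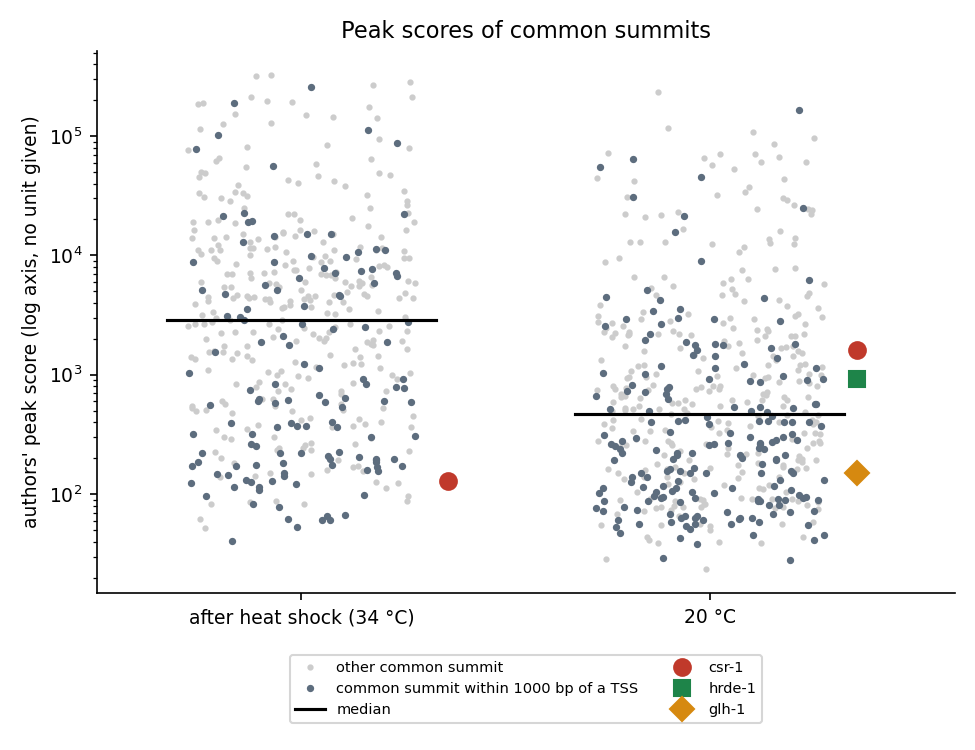
Authors' peak scores (log axis) of all common summits after heat shock (left) and at 20 °C (right). Dots are summits, black lines are medians, and larger symbols are the member genes. At 20 °C csr-1 (1603) and hrde-1 (929) lie above the median of 470.5 and glh-1 (150.2) below it, and after heat shock csr-1 (129) lies below the median of 2884.

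The same change was then read for every peak of the same kind. At 20 °C, 76 shared-class summits met the 1000 bp limit for some gene. After heat shock, 27 of them had a soma-class summit within 100 bp, 28 a shared-class summit, 0 a germline-class summit, 5 one outside the classes and 16 no common summit. Thus 27.6% were in no class list after heat shock, and 21.1% had no common summit. The sites of csr-1, hrde-1 and glh-1 were all among the 21 that left the class lists, csr-1 with an unclassed summit and the others with none. The listing of the genes used both conditions, so this count is a description.

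Of the 60 such peaks that had a summit in both conditions, csr-1 lost the most standing. The share of common summits with a higher score was 93.4% after heat shock and 28.2% at 20 °C, a difference of 65.2 percentage points. The median difference over the 60 was 8.69 points. It was 34.3 points for the 27 in the soma class after heat shock and 1.09 points for the 28 in the shared class. The 5 peaks in no class after heat shock ran from 46.9 to 65.2 points. The other 4 were at egg-5, at ubq-1, at rpn-2 with C23G10.7, and at let-99 with hsb-1. Among the 55 peaks in the shared or soma class after heat shock, the highest difference was 56.5 points. A standing is relative to the other summits of its list, and the lists differ between conditions. The choice of csr-1 used its listing in both conditions, so its place among the 60 is a description.

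**Figure D3:**
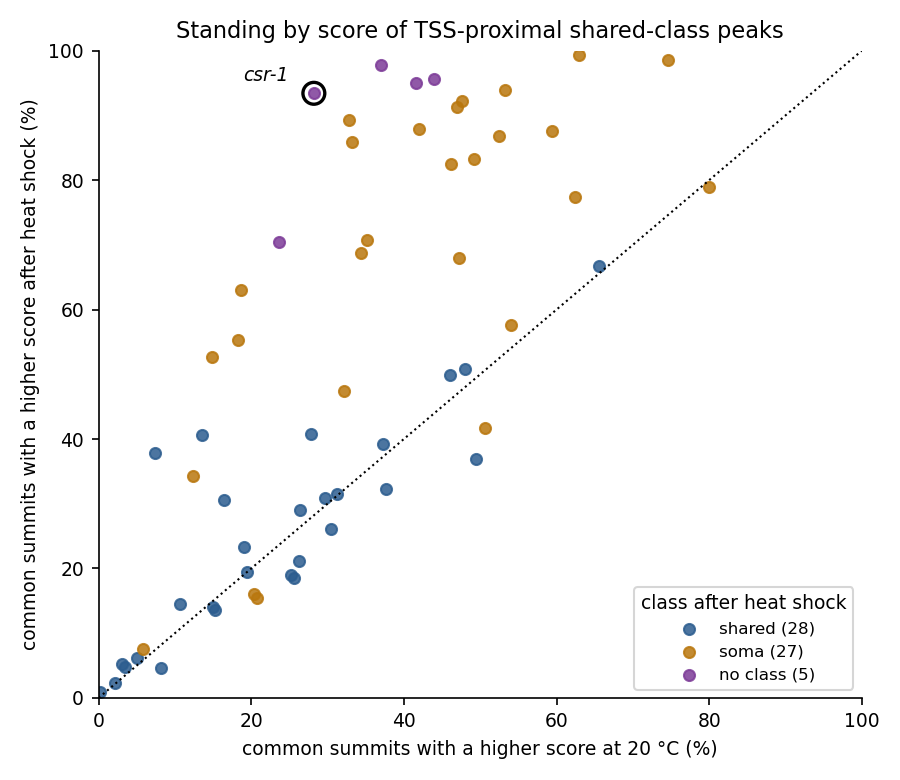
Share of common summits with a higher score after heat shock (vertical axis, %) against the same share at 20 °C (horizontal axis, %), for the 60 TSS-proximal shared-class peaks with a summit in both conditions. Colour gives the class after heat shock and the dotted line equal standing, and csr-1, at 93.4% and 28.2%, is farthest above the line.

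Each gene was also set beside peaks of like score at 20 °C. For each gene the 5 TSS-proximal shared-class peaks next above and the 5 next below in score were taken, a choice made after the data were seen. The 10 around csr-1 scored from 1144 to 1938, and after heat shock 8 were in the shared class, 2 in the soma class and 0 in no class or without a summit. The 10 around hrde-1 scored from 693 to 1188, with 2 shared, 6 soma, 2 in no class and 0 without a summit. The 10 around glh-1 scored from 108.4 to 237.6, and 8 of them also had no summit after heat shock. The loss of a listed summit was thus common at the score of glh-1 and was not seen among the score neighbours of hrde-1. Of the 16 peaks with no summit after heat shock, that of hrde-1 had the highest score at 20 °C, and their median was 157.4. The site of glh-1 ranked 9 of these 16.

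The depletion comparisons set HSF-1 signal on auxin and ethanol against each other in either tissue at 20 °C. The differential score of the authors' lists is headed -log[pvalue], with no base given, so a higher score is a smaller p of theirs and not the size of a loss. It was 677 on germline depletion and 29.8 on soma depletion at csr-1. At hrde-1 it was 265 on germline depletion and 23.02 on soma depletion. At glh-1 it was 144 on germline depletion and 24.2 on soma depletion. The soma scores of the 3 sites were thus close together, while their germline scores were spread more widely and were higher at each gene. A higher germline score was usual in the class. Over the 76 TSS-proximal shared-class peaks the median ratio of germline to soma score was 3.33. The germline and soma scores come from different strains and comparisons, so their ratio holds only as a rank against other peaks.

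Among the 76 TSS-proximal shared-class peaks, the ratio of the germline to the soma score was 22.7 at csr-1, which ranked 6. It was 11.5 at hrde-1, which ranked 20, and 5.98 at glh-1, which ranked 32, against a median of 3.33. By the germline score alone the genes ranked 10, 20 and 34 of 76, and by the soma score alone 36, 48 and 46. The medians over the 76 peaks were 117.2 for the germline score and 28.1 for the soma score. Within these 76, all 3 genes were thus above the median germline score, and only csr-1 was above the median soma score. Among all 242 shared-class peaks, csr-1, hrde-1 and glh-1 ranked 79, 132 and 178 by germline score. By soma score they ranked 125, 155 and 147 there, and by the ratio 50, 136 and 180. In that wider class hrde-1 and glh-1 thus stood below the middle by germline score and by ratio.

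The peaks that were in the soma class after heat shock had germline scores from 15.95 to 175.5, with a median of 49.98. The germline scores of csr-1 and hrde-1 were above those of all 27 of them, and 2 of the 27 were above glh-1. By soma score, 17 of the 27 were above csr-1, 21 above hrde-1 and 21 above glh-1. The germline medians were 310 for the 28 peaks in the shared class after heat shock, 304 for the 5 in no class and 42.3 for the 16 with no summit. Among those 16, hrde-1 had the highest germline score and glh-1 the fourth highest. Against their score neighbours, 0 of 10 had a higher germline score than csr-1, 1 of 10 than hrde-1 and 1 of 10 than glh-1.

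**Figure D4:**
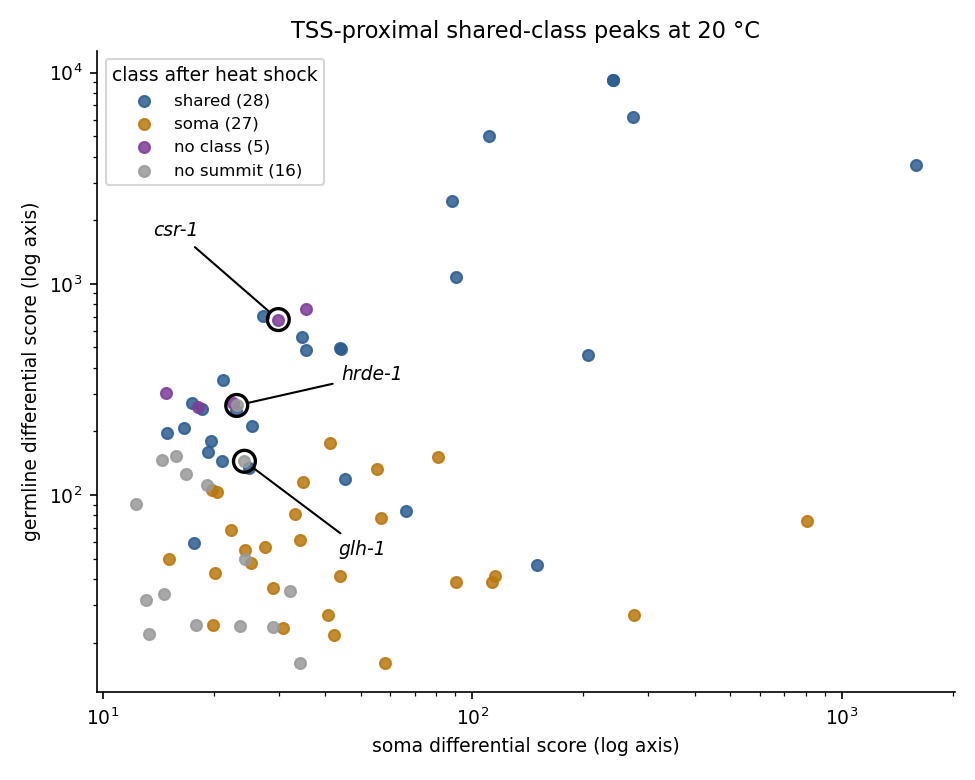
Germline against soma differential score at 20 °C (log axes) of the 76 TSS-proximal shared-class peaks, coloured by their class after heat shock, with the member genes circled. The sites of csr-1 (677 and 29.8), hrde-1 (265 and 23.02) and glh-1 (144 and 24.2) lie in the left part of the plot, with csr-1 and hrde-1 above every peak of the soma class.

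The regions lost on depletion were also wider for the germline than for the soma at each gene. At csr-1 the germline region ran over chrIV:7957881-7958831 (951 bp) and the soma region over chrIV:7958055-7958749 (695 bp). Both held the CSR-1b start, and neither held the start of frpr-10 or of the long isoform. At hrde-1 the germline region was chrIII:4176069-4176957 (889 bp) and the soma region chrIII:4176121-4176637 (517 bp), and both held the starts of hrde-1 and C16C10.13. At glh-1 they were chrI:6854278-6854861 (584 bp) and chrI:6854435-6854638 (204 bp), and both held the TSS. Over the 76 peaks the medians were 649 bp for the germline region and 446.5 bp for the soma region. The glh-1 soma region ranked 74 of 76 by width.

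A wider list of germ granule and small RNA genes was read at the same sites. It held 96 genes in 7 roles, of which 93 matched an annotated protein-coding gene by symbol, and 90 remained without csr-1, hrde-1 and glh-1. Of these 90, 1 had a common summit at a TSS after heat shock (1.11%, against 0.806% of all genes) and 5 at 20 °C (5.56%, against 1.27%). With a distance of 500 bp, and again with the nearest TSS only, these counts were 0 after heat shock and 3 at 20 °C. The matching shares of all genes under those rules are not given here. At 1000 bp the share after heat shock was near that of all genes. The list was chosen with earlier results of these data known, so the share at 20 °C is a description.

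Across all genes, 1.27% had a summit at 20 °C. By role, the Argonautes held 4 of 18, but csr-1 and hrde-1 among them were chosen for their summits. The others were ppw-1, a PAZ and Piwi domain Argonaute with a shared-class summit 653 bp upstream (score 76.1), and alg-5, a germline Argonaute of the microRNA branch with a germline-class summit 834 bp upstream (score 62.6). The alg-5 summit was nearer to the histone gene his-68. P granule genes held 3 of 22, which were glh-1, also chosen for its summit, mip-2 and pos-1. The mip-2 gene encodes a LOTUS domain protein that binds GLH-1, and its germline-class summit lay 153 bp upstream (score 149). The pos-1 gene encodes a zinc finger RNA-binding protein of early embryos, and its germline-class summit lay 284 bp upstream (score 94.1). Z granule and mutator genes held 1 of 13, the Tudor domain gene simr-1, with a shared-class summit 330 bp upstream (score 235.6) that was nearer to C06A5.3. Genes of RNA-dependent RNA polymerase complexes held 0 of 6 at 20 °C, and nuclear RNAi genes 0 of 9. Genes of piRNA synthesis and trimming held 0 of 13, and Dicer and small RNA cofactor genes 0 of 12.

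None of these 5 genes had a common summit within 1000 bp after heat shock, where 0.806% of all genes had one. Germline-class summits marked 0.135% of all genes after heat shock and 0.521% at 20 °C. The share of all genes that kept a summit from 20 °C is not given here, so the count is not read as particular to these genes. The reverse listing was seen at 1 list gene, pid-3, which encodes a subunit of a complex for piRNA maturation. It had a germline-class summit 696 bp upstream after heat shock (score 158.6, rank 399 of 441), nearer to spe-47, and at 20 °C its nearest summit was 33095 bp away. By score at 20 °C, csr-1 and hrde-1 stood above the 5 other list genes, and glh-1 stood below simr-1 and just above mip-2.

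**Figure D5:**
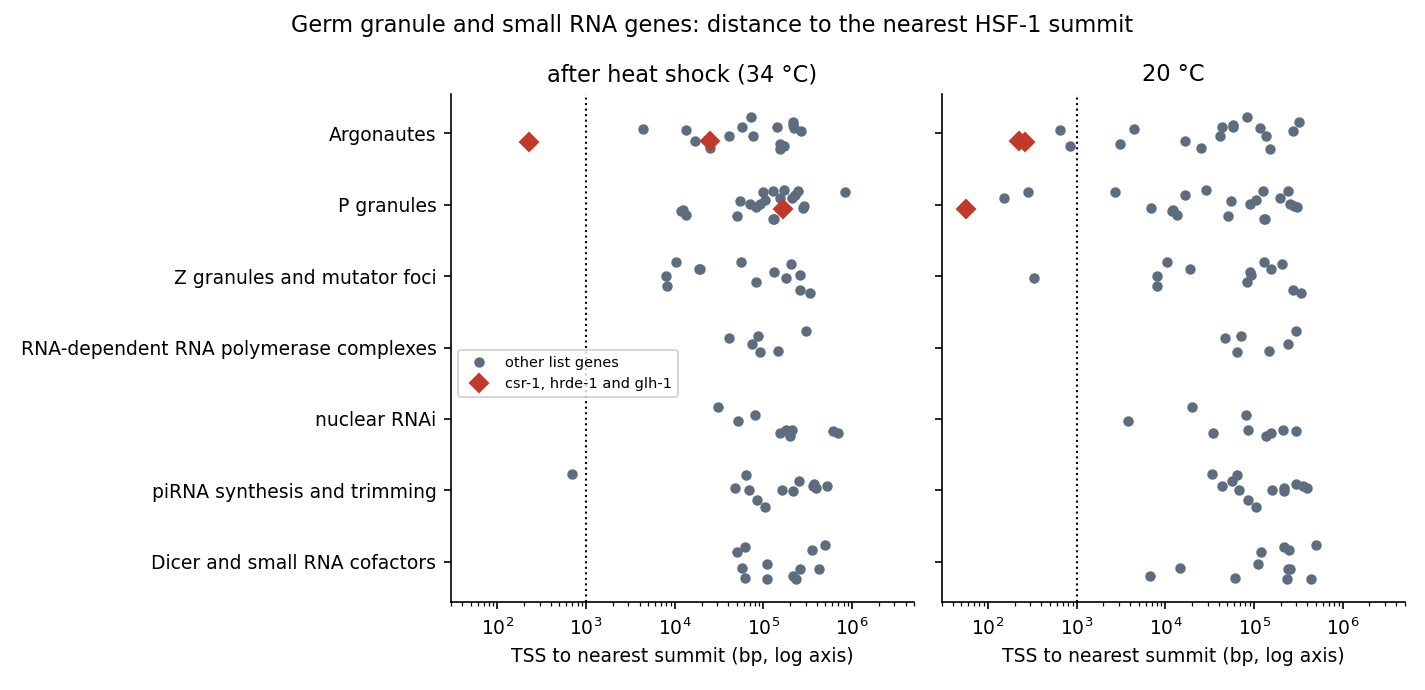
Distance in bp (log axis) from the nearest protein-coding TSS of each of the 93 list genes to the nearest common summit, after heat shock (left) and at 20 °C (right), by role. Diamonds are csr-1, hrde-1 and glh-1, dots are other genes, and the dotted line marks 1000 bp, with 2 genes to its left after heat shock and 8 at 20 °C.

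The genes with the most similar pattern were found by class in both conditions and by the difference in score rank at 20 °C. Each gene was read only at the summit nearest to its TSS, and genes at the member's own summit were left out. For csr-1, 5 other genes then shared its classes. The closest were C23G10.7 and the proteasome gene rpn-2, at 1 peak of rank 119, and egg-5, a pseudophosphatase gene of the oocyte-to-embryo transition, at a peak of rank 186. For hrde-1 there were 25 candidates, the closest of them 72 ranks away. These were the nuclear receptor gene nhr-47, 38 bp from a peak of rank 256, and the J-domain gene dnj-19, 358 bp from the same peak. They were followed by F54A3.6 and cct-3 at 1 peak of rank 262. For glh-1 there were 26 candidates, the closest 11 ranks away at 1 peak of rank 357. That peak was nearest to urm-1. It lay 738 bp from sip-1, a small heat shock protein gene, 813 bp from taf-11.3 and 995 bp from sly-1. Likeness was measured over 2 conditions only.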

How the data were processed

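HSF-1 ChIP-seq peak lists of young adults were analysed, and no values per library were used. Per the submitters' processing notes, Bowtie2 and MACS2 were used, and the sources used here give no versions, filters or build. The authors deposited 2 files of common summits and 6 class lists, each with a peak score, and per the file headers a -log p from the depletion comparison. Its base is not stated, so it was treated as a score. Peak names carry JTL611, the soma TIR1 strain. Whether replicates were pooled is not stated. Of 100 rows in the germline list after heat shock, 8 repeated others exactly and were left out.

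Each gene took the summits within 1000 bp of its protein-coding TSSs in Ensembl release 115 (WBcel235), mitochondrial genes left out. The fit of coordinates was checked by moving summits by 500 bp to the left and right. Summits within 300 bp of a TSS at 20 °C numbered 15 on chromosome I as deposited, and 8 and 14 when moved. Chromosome III had 22, against 17 and 14 when moved, and chromosome IV 21, against 23 and 27. After heat shock the counts were 10, 4 and 6 for I, 7, 9 and 9 for III, and 10, 14 and 13 for IV. Over all chromosomes they were 54 of 441 after heat shock, against 56 and 58 when moved, and 99 of 500 at 20 °C, against 81 and 93. The fit was thus not resolved for IV in either condition, nor after heat shock for III and for all summits. For I at 20 °C it was weak, since the move to the right took the count only from 15 to 14. Over all summits at 20 °C it was also weak, since the same move took the count only from 99 to 93. Summits of the 2 conditions within 100 bp counted as 1 site. The assignment was tested on simulated summits at known distances.

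The members and lists were chosen with earlier results of these data known. Named genes were the members, genes sharing their summits, list genes with a summit and the 3 most similar genes per member; urm-1 and cct-3, tied with these at the same peaks, and egg-5, ubq-1, let-99 and hsb-1 were also named as the remaining peaks of a count, and prg-1, cgh-1, hpl-2 and sago-1 for distance, after their values were seen. Of the list, prg-2, cde-1 and tofu-3 matched no protein-coding symbol. No test was run, because the rule used the listings. Depth and replicate errors could not be given without counts. Python 3.11.15, pandas 2.3.3, numpy 2.4.6 and scipy 1.17.1 were used.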

Additional observations from a re-analysis of the deposited data

How the results depend on the processing

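Of 41 alternatives over 11 values, 25 kept the value and 16 moved it. A count was taken as kept within 1.5 times, and a share of summits within its exact binomial 95% interval. The moved values thus depend on the score limit, the distance, the rule of assignment or counterpart, or the set of summits compared. When summits under the median score of their condition were left out, 0 of the 3 genes had a summit after heat shock. At 20 °C 2 of the 3 then did, without glh-1, and 2 did with the nearest TSS only, without hrde-1. Both of these changes at 20 °C were within 1.5 times and so counted as kept. When rows under the median of their own list were left out, 0 were in a class list at 20 °C. With overlap of listed regions in place of summits, by any amount or by at least 50% of the shorter region, 0 of 3 peaks had a counterpart after heat shock, because csr-1 was in no class there. Among summits at a TSS only, the share with a higher score was 86.0% for csr-1 after heat shock, and at 20 °C 15.8% for csr-1, 21.6% for hrde-1 and 60.0% for glh-1. Among summits of the same class it was 50.0% for csr-1 after heat shock, and at 20 °C 55.8% for csr-1, 69.8% for hrde-1 and 94.2% for glh-1. With a distance of 500 bp, and again with the nearest TSS only, 0 of the 90 other list genes had a summit after heat shock and 3 at 20 °C. The matching shares of all genes are not given here. No paired analysis was possible because no file gives values by library, and for the same reason leaving out a replicate was not run. Motif searches were left out, since they need a genome sequence, which was not used here.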

Other observations

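Some genes of the list had a summit more than 1000 bp and at most 5000 bp from a TSS, a limit set after the values were seen, and were not counted. The Argonaute gene sago-1 had such a summit in both conditions. Its nearest summit was 4396 bp upstream after heat shock (score 4049, rank 203 of 441) and 4399 bp upstream at 20 °C (score 742, rank 206 of 500), in the shared class both times. The Piwi gene prg-1 had a germline-class summit 3065 bp downstream of its TSS at 20 °C (score 180.0), and cgh-1, a DEAD-box helicase gene, had one 2724 bp downstream (score 43.5). The heterochromatin protein gene hpl-2 had a soma-class summit 3743 bp upstream at 20 °C (score 81.4). These distances do not tie a summit to a gene.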
